A study of Homo sapiens with 12 samples.

Results

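Expression of 10 AP-1 and immediate early genes was examined by RNA sequencing in MDA-MB-468 cells and MDA-MB-231 cells, both from triple-negative breast cancer, with and without knockout (KO) of SMARCA4. The genes were FOS, FOSL1, FOSL2, JUN, JUNB, JUND, ATF3, MAFF, EGR1 and IER3, chosen by their symbols, and all 10 of 10 were among the 11529 genes of the deposited table. AP-1 is a dimer of basic leucine zipper proteins. Its Fos subunits (FOS, FOSL1, FOSL2 and the related FOSB) must pair with a Jun subunit (JUN, JUNB or JUND), whereas Jun proteins can also pair with each other, and members of the ATF and Maf families join some of these dimers. FOS, JUN, JUNB, ATF3, EGR1 and IER3 are immediate early genes, which are transcribed within minutes of a growth factor, serum or stress signal without new protein synthesis. FOSL1 is transcribed more slowly, under sustained ERK signalling, and its product is known as a driver of invasive growth in breast cancer cells.

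Each cell line was represented by 3 control and 3 SMARCA4 KO samples, 12 in all. MDA-MB-468 is a basal-like line and MDA-MB-231 a mesenchymal-like line. SMARCA4 encodes BRG1, an ATPase of the SWI/SNF chromatin remodelling complex. KO cells were puromycin-selected polyclonal pools made with a lentiviral CRISPR/Cas9 vector against SMARCA4, and the samples they were compared with are labelled as wild type in their genotype and as control in their descriptions. The study used parental cells and cells given a nontargeting CRISPR/Cas9 vector, and the labels do not say which of these were sequenced. All cells were untreated and were grown in DMEM with 10% serum, and the study's protocol for these cells detaches them with trypsin before RNA extraction. The labels do not say whether the replicates of a group came from separate cultures, so that p-values measure only the spread between these samples, which may be technical.

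The values are log2(FPKM + 1), where FPKM is the number of fragments per kilobase of transcript, scaled to the size of the library, so that levels of different genes can be set side by side per length. No read counts were used here, and the depth is therefore not known. Each sample had 11293 to 11362 genes above 0. The log2 level of SMARCA4, the targeted gene, was 1.07 to 1.27 lower in each KO sample of MDA-MB-468 cells than in the control with the same replicate number, and 1.53 to 1.64 lower in MDA-MB-231 cells. Because the KO cells were pools, fewer edited cells and less RNA per cell cannot be told apart. The line labels matched most of their markers. MDA-MB-468 controls had a mean log2 level of 8.87 for the basal keratin KRT5 and 5.50 for E-cadherin (CDH1). MDA-MB-231 controls had 0.01 and 0.33. VIM and AXL stood at 1.82 and 0.07 against 10.35 and 7.96, in the same order of lines. All 7 epithelial and basal markers looked up were higher in MDA-MB-468 controls. Among these, KRT8, KRT18 and KRT19 were high in the other line too, at 8.54, 8.33 and 7.95. CD44, looked up as a mesenchymal-like marker, went the other way, at 9.80 for MDA-MB-468 controls against 8.91. Of the 9 markers of leukocytes, endothelial cells and fibroblasts looked up, 1 was in the table, CD14, at 0.84 to 6.004.

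RefSeq promoter sequences (build GRCh38.p14) were matched for 8 of the 10 genes, and FOSL1 and IER3 were not matched. Sequences of EGR1 and JUND are shown, EGR1 because it stood among the genes that varied most between replicates and JUND because it was the gene called after KO. Each runs 5′ to 3′ over the 250 bases before the annotated start, chr5:138465229-138465478 on the plus strand for EGR1 and chr19:18281623-18281872 on the minus strand for JUND. Capitals mark the CArG box, the sequence bound by serum response factor, in EGR1, and TGACGTCA, the cyclic AMP response element that ATF and Jun dimers can bind, in JUND.
EGR1: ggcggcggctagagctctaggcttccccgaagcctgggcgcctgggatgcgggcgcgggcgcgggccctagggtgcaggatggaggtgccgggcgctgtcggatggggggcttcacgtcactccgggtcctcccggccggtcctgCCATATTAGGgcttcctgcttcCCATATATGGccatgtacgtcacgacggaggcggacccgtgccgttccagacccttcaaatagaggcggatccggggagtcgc
JUND: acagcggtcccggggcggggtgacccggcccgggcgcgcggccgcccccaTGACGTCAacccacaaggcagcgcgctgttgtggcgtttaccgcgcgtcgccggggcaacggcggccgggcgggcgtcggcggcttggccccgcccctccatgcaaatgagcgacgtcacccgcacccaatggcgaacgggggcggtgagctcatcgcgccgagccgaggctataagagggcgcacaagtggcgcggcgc
In EGR1 the CArG box was found in 2 places, CCATATTAGG from -105 to -96 and CCATATATGG from -83 to -74 relative to the start. In JUND the motif TGACGTCA lay from -200 to -193, and MAFF held the same motif from -54 to -47. FOSL2 held TGACTCA, an AP-1 element, from 4 to 10 after the start. Searched on both strands over windows of 300 bases, 250 before and 50 after the start, the CArG box was present in 1 of the 8 promoters, TGANTCA in 1 and TGACGTCA in 2. Of all 35116 promoters in the RefSeq set 1.29% held a CArG box, 7.71% TGANTCA and 1.85% TGACGTCA. These matches are a description of the letters in the window only.

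The 10 genes lie on 8 chromosomes in GRCh37, the build the authors used under the name hg19 (annotation of GENCODE release 44 mapped to it). JUNB and JUND both lie on chromosome 19, at 12902300-12904129 on the plus strand and 18390504-18392432 on the minus strand. JUN and ATF3 both lie on chromosome 1, JUN at 59242517-59249720 on the minus strand and ATF3 at 212738676-212794119 on the plus strand. FOS was annotated on chromosome 14 at 75745529-75748933 (plus strand), FOSL1 on chromosome 11 at 65659520-65668044 (minus strand) and FOSL2 on chromosome 2 at 28615315-28640184 (plus strand). EGR1 was annotated on chromosome 5 at 137801168-137804992 (plus strand), MAFF on chromosome 22 at 38596774-38612514 (plus strand) and IER3 on chromosome 6 at 30710976-30712325 (minus strand). For JUNB, MAFF, FOSL2, ATF3 and IER3, a gene on the opposite strand overlaps the annotated span (HOOK2, PLA2G6, FOSL2-AS1, RN7SL512P, and IER3-AS1 with HCG20). The library kit preserved strand, but whether the counting used it is not given in the sources used here, so that reads of these partners cannot be told apart.

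Control cells of the lines were compared for the levels of these genes before KO. Control MDA-MB-468 cells had more JUNB, ATF3 and EGR1, and control MDA-MB-231 cells had more FOSL1, FOSL2, MAFF and IER3. FOSL1 differed most, by 5.50 on the log2 scale, a 45.1-fold difference of FPKM + 1. By limma with Benjamini-Hochberg adjustment, with calls made at an adjusted p under 0.05 where log2 levels differed by over 0.5, 3 genes were higher and 4 lower in MDA-MB-468 cells. The lines differed in 64.1% of all genes by the same rule (32.7% higher and 31.4% lower), so that 7 of 10 is near the background. Control samples of the lines did not overlap in 8 of the 10 genes, 3 higher and 5 lower, as in 85.5% of all genes (43.2% higher and 42.3% lower).

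Among the Fos genes, FOSL1, which encodes FRA1, stood at log2 values of 2.34, 2.76 and 2.89 in the MDA-MB-468 controls and 8.39, 8.06 and 8.04 in the MDA-MB-231 controls (difference -5.50, standard error 0.16, adjusted p = 2.5e-08). The lines were far apart in every sample. FOSL2, which encodes FRA2, stood at 4.36, 4.20 and 4.41 against 6.08, 6.24 and 6.01 (difference -1.79, standard error 0.09, adjusted p = 6.2e-07). FOS, the prototype immediate early subunit, had its highest MDA-MB-231 control between the MDA-MB-468 controls, with 7.62, 6.08 and 7.37 against 6.86, 5.03 and 5.09. The difference of 1.37 (standard error 0.56) missed the threshold at an adjusted p = 0.051. FOS was called without MDA-MB-468 control 2, its lowest control in that line, or without MDA-MB-231 control 1, its highest. It was also called with the replicate number as a block in the fit (adjusted p = 0.0043), where 64.2% of all genes were called. A filter on the mean, an intensity trend and an unadjusted p called it too. FOS was not called with a pseudocount of 0.1, 75th percentile scaling, quantile normalization, 1 fit of all samples or a log2 difference over 1. Leaving out any other control did not call it either.

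Of the Jun genes, JUNB, which is a weaker activator than JUN at many promoters, had log2 levels of 7.55, 6.98 and 7.67 in the MDA-MB-468 controls and 5.59, 4.88 and 4.95 in the MDA-MB-231 controls. All MDA-MB-468 samples were above all MDA-MB-231 samples (difference 2.26, standard error 0.23, adjusted p = 4.0e-05). JUND, the constitutively transcribed Jun gene, was lower by 0.42 in MDA-MB-468 cells (standard error 0.09, adjusted p = 0.0024), which is under the size required for a call, with 5.64, 5.46 and 5.66 against 6.12, 5.93 and 5.97. JUN overlapped between the lines (difference -0.19, 95% confidence interval -0.66 to 0.29).

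EGR1, a zinc finger factor induced through serum response factor, stood at 6.45, 5.49 and 6.58 against 4.80, 2.35 and 3.11 (difference 2.75, standard error 0.59, adjusted p = 0.0027). ATF3, a stress-induced leucine zipper factor, stood at 3.80, 3.17 and 4.17 against 2.71, 1.77 and 1.99 (difference 1.56, standard error 0.30, adjusted p = 0.0016). For both genes the 3 MDA-MB-468 controls lay above the 3 MDA-MB-231 controls. MAFF, a small Maf protein without an activation domain, was lower in MDA-MB-468 cells by 1.21 (standard error 0.09, adjusted p = 6.7e-06), with 3.36, 3.61 and 3.48 against 4.73, 4.58 and 4.78. IER3, an early response gene that modulates cell survival and ERK signalling, was lower by 1.09 (standard error 0.19, adjusted p = 7.7e-04), with 5.07, 5.20 and 5.76 against 6.67, 6.29 and 6.36.

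Ordered by mean level, JUNB (7.40 ± 0.37, SD, n = 3) was the highest of the 10 genes in MDA-MB-468 controls, followed by FOS (7.03 ± 0.83), EGR1, JUN, JUND, IER3, FOSL2, ATF3, MAFF and last FOSL1 (2.66 ± 0.29). In MDA-MB-231 controls FOSL1 came first (8.16 ± 0.20), followed by IER3, JUN, FOSL2, JUND, FOS, JUNB, MAFF, EGR1 and last ATF3 (2.16 ± 0.49). FOSL1 was above 97.5% of all genes in MDA-MB-231 controls and above 19.4% in MDA-MB-468 controls. Within the MDA-MB-468 order the ranges of neighbours overlapped from JUNB down to IER3, and again for ATF3 and MAFF, while IER3, FOSL2 and ATF3 were apart from each other and FOSL1 was apart from MAFF. Within the MDA-MB-231 order neighbours overlapped from IER3 down to JUNB and from MAFF down to ATF3, and FOSL1 stood above IER3 without overlap.

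**Figure D1:**
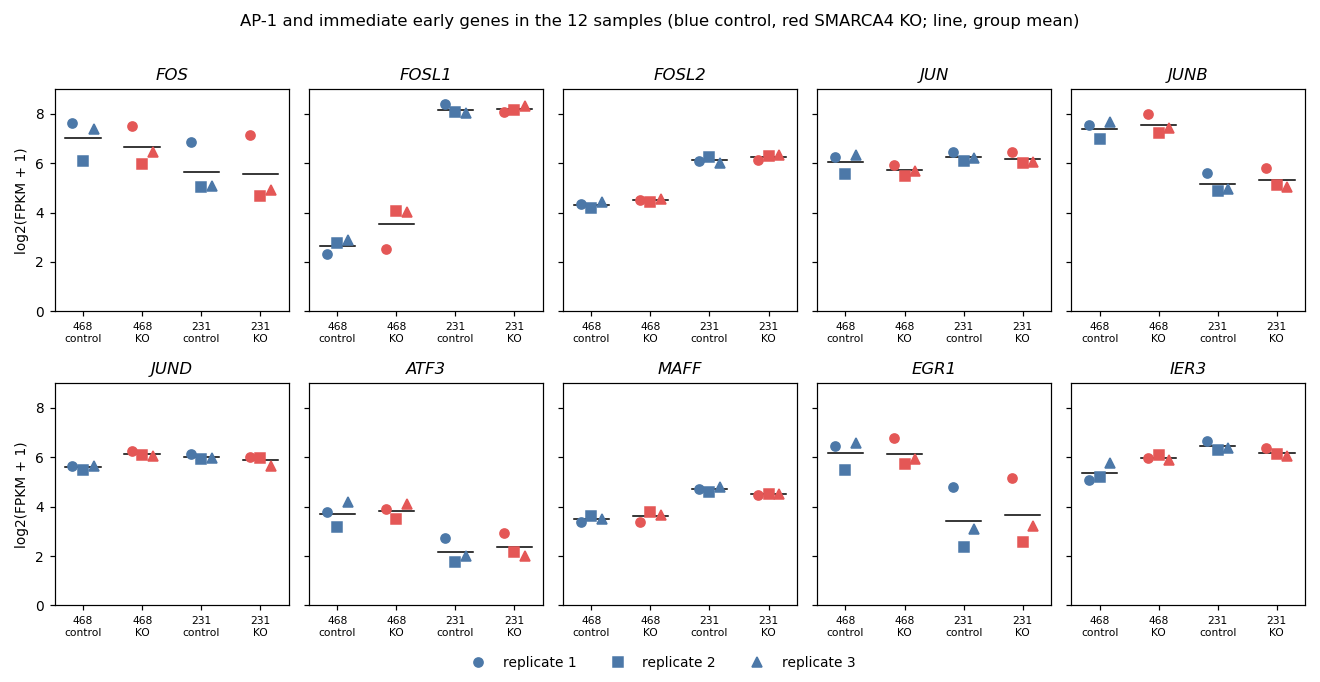
Log2(FPKM + 1) of each of the 10 genes in the 12 samples, by group on the x axis, with controls in blue, SMARCA4 KO samples in red, the replicate number as the shape of the point and the group mean as a line. FOSL1 sits at 2.34 to 4.06 in MDA-MB-468 samples and at 8.04 to 8.39 in MDA-MB-231 samples, and in FOS and EGR1 replicate 1 stands highest in both MDA-MB-231 groups.

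The make-up of the Fos and Jun families followed the cell line. As a share of the summed FPKM of FOS, FOSB, FOSL1 and FOSL2, FOS made up 66.9% ± 2.1 (SD, n = 3) in MDA-MB-468 controls and 12.98% ± 7.2 in MDA-MB-231 controls, while FOSL1 made up 3.22% ± 2.2 and 68.5% ± 6.0. FOSB was 19.2% ± 6.3 of the family in MDA-MB-468 controls and 1.89% ± 2.5 in MDA-MB-231 controls. Among the Jun genes JUNB was the largest in MDA-MB-468 controls, at 59.8% ± 1.3, and JUN the largest in MDA-MB-231 controls, at 43.3% ± 0.82. These shares are of transcripts, and no measure of protein was used here.

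Related genes called by the same rule were counted from the fixed lists, against 64.1% of all genes (32.7% higher and 31.4% lower). Of 11 other AP-1 family genes in the table, 6 were called higher and 3 lower in MDA-MB-468 controls. Their median log2 difference was 0.67 against 0.01 over all genes. Among them were BATF at 2.70, FOSB at 2.68 and JDP2, a repressor that pairs with Jun proteins, at 2.20. Among 25 other immediate early genes, 10 were called higher and 11 lower (median -0.21). These included CTGF at -3.08, SOCS3 at -2.23 and SGK1 at -2.06, and the orphan nuclear receptor gene NR4A1 at 2.73. Of 16 MAP kinase and serum response factor genes, 4 were called higher and 7 lower (median -0.30). ELK3, a ternary complex factor that binds beside serum response factor, had the largest difference, at -3.85, followed by MAP2K3 at -1.25, MKL1 at 1.16 and MAPK14 at -1.14.

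Most ERK feedback genes, which ERK signalling induces and many of which restrain it, and most AP-1 target genes were higher in MDA-MB-231 controls. Of 12 ERK feedback genes, 10 were called lower and 0 higher in MDA-MB-468 controls (median -2.06), against 31.4% and 32.7% of all genes. The largest differences were those of the ERK phosphatase gene DUSP6 (-3.69), PHLDA1 (-3.35), the ETS factor gene ETV1 (-3.22) and the ERK pathway inhibitor gene SPRY4 (-2.32), and the 2 genes not called, SPRY1 and SPRED2, stood at -0.03 and -0.05. Of 19 AP-1 target genes, 18 were called lower and 1 higher in MDA-MB-468 controls (median -2.93). Among them were PLAU, which encodes urokinase (-6.57), and the cytokine genes IL6 (-6.01) and IL11 (-5.94). HMOX1 was the gene higher in MDA-MB-468 cells, by 1.09.

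**Figure D2:**
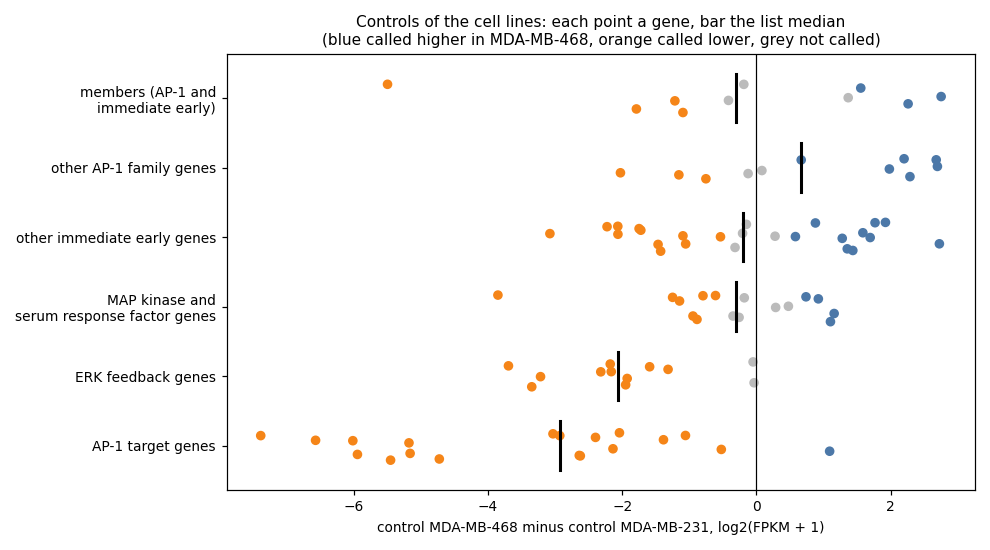
Difference of mean log2(FPKM + 1), control MDA-MB-468 minus control MDA-MB-231 cells, for each gene (point) of the 10 members and of the 5 other lists, with the median of each list as a bar and the genes called higher in MDA-MB-468 cells in blue, lower in orange and not called in grey. The ERK feedback genes and AP-1 target genes lie mostly to the left of 0, with medians of -2.06 and -2.93, while the members spread from -5.50 to 2.75.

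FOS and EGR1 varied between replicates far more than most genes. The SD within groups, pooled over the 4 groups, was 1.03 on the log2 scale for FOS and 1.01 for EGR1, against a median of 0.11 over all genes, and placed them 25th and 27th among the 11529 genes. FOSL1 (0.48), ATF3 (0.46), JUNB (0.39) and JUN (0.28) were above 95.5% or more of all genes, and IER3 (0.23) above 91.9%. JUND (0.14), MAFF (0.13) and FOSL2 (0.10) were above 66.6%, 63.0% and 36.6% of the genes.

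The replicate values of the inducible genes had a common order, which was noticed after the values were seen. In MDA-MB-231 cells replicate 1 was the highest in the controls and again in the KO samples for 7 of the 10 genes (FOS, JUN, JUNB, JUND, ATF3, EGR1 and IER3), against 8.93% of all genes. FOS stood at log2 values of 6.86, 5.03 and 5.09 in control replicates 1, 2 and 3 and at 7.13, 4.67 and 4.93 in KO replicates 1, 2 and 3. EGR1 stood at 4.80, 2.35 and 3.11 in controls and at 5.17, 2.58 and 3.20 in KO samples. In both genes replicate 1 was above replicates 2 and 3 by more than 1.5, whether control or KO. The same order was present in 17 of the 25 other immediate early genes (68%).

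In MDA-MB-468 cells replicate 2 was the lowest in the controls and in the KO samples for 6 of the 10 genes (FOS, FOSL2, JUN, JUNB, ATF3 and EGR1) and for 13 of the 25 other immediate early genes (52%), against 8.82% of all genes. FOS stood there at 7.62, 6.08 and 7.37 in controls and at 7.50, 5.96 and 6.46 in KO samples. Genes with the order of both lines were FOS, JUN, JUNB, ATF3 and EGR1, 5 of the 10, and 10 of the 25 other immediate early genes, against 1.03% of all genes. They were NR4A1, NR4A2, IER2, KLF10, ZFP36, ZFP36L1, ZFP36L2, DUSP1, MCL1 and TRIB1. ZFP36 and DUSP1 encode an mRNA decay factor and a MAP kinase phosphatase that are themselves induced early. Of the MAP kinase and serum response factor genes, the ERK feedback genes and the AP-1 target genes, 0 had both orders, and of the other AP-1 family genes 2 of 11 did, FOSB and JDP2. The labels do not say what samples of a cell line with the same replicate number have in common. The cause of this order was not tested.

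SMARCA4 KO was then compared with control in MDA-MB-468 cells. JUND rose in KO cells by 0.54 on the log2 scale, and was the 1 gene of the 10 called, in a comparison that called 2.14% of all genes (1.33% higher and 0.815% lower). IER3 was 0.64 and FOSL1 0.87 above control on average without passing the test. FOS, JUN, JUNB, ATF3, MAFF, EGR1 and FOSL2 were within 0.39 of control in either direction. The median difference of the 10 genes was 0.13, against 0.02 over all genes, 7 of them being above 0. In 3 of the 10 (JUND, IER3 and FOSL2) every KO sample was above every control, and in 0 every KO sample was below. Over all genes the groups did not overlap in 31.0%, with KO samples all higher in 17.5% and all lower in 13.5%. An unadjusted p under 0.05 was reached by 2 of the 10 genes and by 25.1% of all genes.

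JUND stood at log2 values of 5.64, 5.46 and 5.66 in control and 6.26, 6.09 and 6.05 in KO samples. The groups did not overlap, the difference being 0.54 (standard error 0.08, adjusted p = 0.036 from limma), a 1.46-fold change of FPKM + 1. When same-numbered samples were blocked its adjusted p was 0.055 (2.09% of all genes called), so that JUND and with it the 1 call of the 10 genes was lost. Leaving out any of the 6 samples also ended the call, with differences of 0.48 to 0.58.

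IER3 stood at 5.07, 5.20 and 5.76 in control and 5.97, 6.10 and 5.87 in KO samples. All KO samples were above the controls, control 3 being within 0.11 of its same-numbered KO sample (difference 0.64, standard error 0.19, adjusted p = 0.12). FOSL1 stood at 2.34, 2.76 and 2.89 in control and 2.51, 4.06 and 4.03 in KO samples. KO samples 2 and 3 lay above all controls and KO sample 1 lay among them. Over the 3 samples the difference was 0.87 (standard error 0.45, adjusted p = 0.29). Without KO sample 1, the lowest of the 3, it was 1.38 (adjusted p = 0.030), in a setting that called 474 genes in place of 247. Leaving out any other single sample did not call FOSL1. FOSL2 was higher in every KO sample by a small amount, at 4.36, 4.20 and 4.41 in control and 4.49, 4.45 and 4.54 in KO samples (difference 0.17, adjusted p = 0.20).

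The remaining genes overlapped between KO and control in this line. FOS had a mean of 7.03 ± 0.83 in control and 6.64 ± 0.78 in KO cells (SD, n = 3), with a 95% confidence interval of the difference from -1.76 to 0.98. EGR1 had 6.17 ± 0.60 and 6.14 ± 0.55, with an interval from -1.01 to 0.94. These intervals, from the fit without a block, include log2 changes of 0.9 in either direction, which were not detectable with this spread. With same-numbered samples blocked the intervals were -0.96 to 0.18 for FOS and -0.71 to 0.64 for EGR1. Neither gene was called, and the pairing behind the block is uncertain. JUN stood at 6.27, 5.56 and 6.33 in control and 5.93, 5.48 and 5.70 in KO samples (difference -0.35, interval -0.93 to 0.24). Each KO sample was below its same-numbered control for FOS and JUN. The intervals were -0.52 to 0.79 for JUNB, -0.59 to 0.84 for ATF3 and -0.17 to 0.44 for MAFF.

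Shares within the families were also compared between KO and control. JUN made up 24.4%, 21.5% and 24.0% of the summed FPKM of the 3 Jun genes in control and 15.6%, 17.0% and 17.8% in KO MDA-MB-468 samples, while JUNB made up 59.8% ± 1.3 and 60.4% ± 4.0 (SD, n = 3). The JUN shares did not overlap between groups, as was so for the levels of 31.0% of all genes in this line. Those of JUND did overlap, at 16.9% ± 2.8 in control and 22.8% ± 3.2 in KO cells. In the Fos family FOSL1 made up 3.22% ± 2.2 in control and 1.79%, 13.7% and 9.77% in KO MDA-MB-468 samples. In MDA-MB-231 cells the groups overlapped for JUN (43.3% ± 0.82 in control and 42.3% ± 2.8 in KO samples) and for FOSL1 (68.5% ± 6.0 and 67.1% ± 11.7). The shares were looked at after the levels, and no test was made of them.

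Few genes of the related lists were called in MDA-MB-468 KO cells. Of 25 other immediate early genes, SGK1, a serum-induced kinase gene, rose by 1.42 (adjusted p = 0.025) and BTG1, an antiproliferative gene, fell by 0.58 (adjusted p = 0.035). Of the 19 AP-1 target genes, PLAU rose by 0.55 (adjusted p = 0.034). When same-numbered samples were blocked, SGK1 was called (adjusted p = 0.045), BTG1 and PLAU were lost (adjusted p = 0.0505 and adjusted p = 0.063), and SPRY2, an inhibitor of the ERK pathway, was called at 0.83 (adjusted p = 0.045). Of the 11 other AP-1 family genes, 16 MAP kinase and serum response factor genes and 12 ERK feedback genes, 0 were called by limma without the block, while 1, 2 and 5 had an unadjusted p under 0.05. The medians of the 5 lists lay between -0.01 and 0.05.

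**Figure D3:**
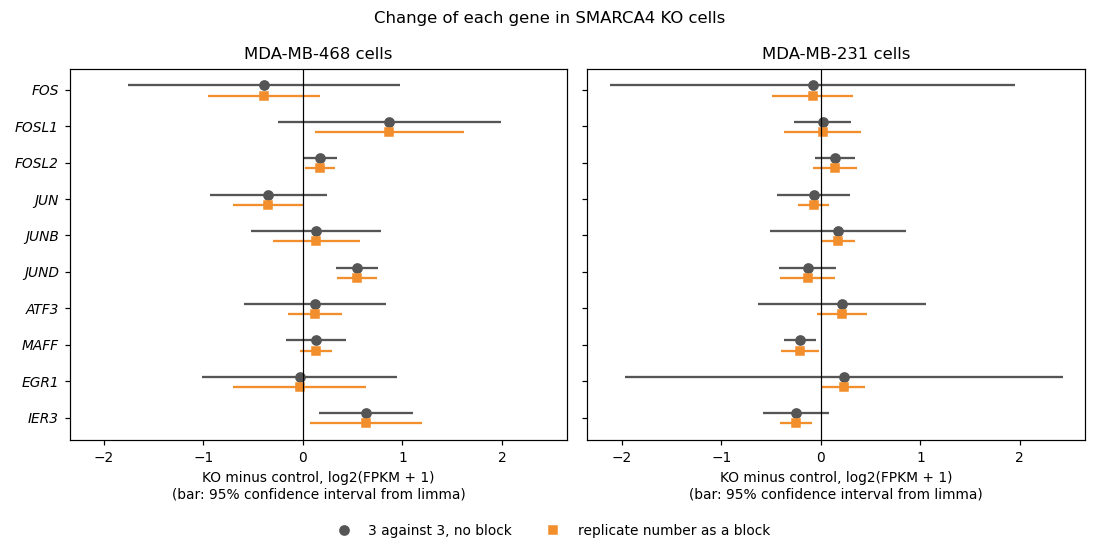
Mean difference of log2(FPKM + 1), KO minus control, with its 95% confidence interval from limma, for the 10 genes in MDA-MB-468 cells (left) and MDA-MB-231 cells (right), fitted without a block (grey circles) or blocked by replicate number (orange squares). JUND and IER3 lie right of 0 in MDA-MB-468 cells, at 0.54 and 0.64, and the grey intervals of FOS and EGR1 in MDA-MB-231 cells reach from about -2 to 2 and shrink with the block.

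In MDA-MB-231 cells the mean differences of the 10 genes lay between -0.25 and 0.23. None was called by limma (0 of 10, against 3.70% of all genes, 2.39% higher and 1.31% lower), and 1 of the 10, MAFF, had an unadjusted p under 0.05, against 31.2% of all genes. The median difference was -0.03 (all genes, -0.01), with 5 genes above and 5 below 0. MAFF stood at 4.73, 4.58 and 4.78 in control and 4.45, 4.51 and 4.52 in KO samples. It was the 1 gene whose KO samples all lay below the controls (difference -0.20, standard error 0.07, adjusted p = 0.099), and 0 genes had all KO samples above them. Over all genes the groups did not overlap in 36.0%, all higher in 16.6% and all lower in 19.4%.

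FOSL1, the highest of the 10 genes in this line, stood at 8.39, 8.06 and 8.04 in control and 8.08, 8.16 and 8.30 in KO samples. The difference was 0.02, with a 95% confidence interval from -0.27 to 0.30. IER3 stood at 6.67, 6.29 and 6.36 in control and 6.38, 6.12 and 6.06 in KO samples, lower in each of the same-numbered samples but overlapping between the groups (difference -0.25, adjusted p = 0.26). JUND stood at 6.12, 5.93 and 5.97 in control and 5.999, 5.99 and 5.63 in KO samples (difference -0.13, interval -0.42 to 0.16). The levels of JUND overlapped, KO sample 3 being the lowest. For FOSL2, JUN, JUNB and ATF3 the differences were 0.14, -0.07, 0.17 and 0.21.

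For FOS and EGR1 the spread between replicates set the error. FOS differed by -0.08, with an interval from -2.12 to 1.95, and EGR1 by 0.23, with an interval from -1.97 to 2.43. Blocking by replicate number lowered the standard error from 0.82 to 0.14 for FOS and from 0.89 to 0.08 for EGR1, and neither gene was called (adjusted p = 0.76 and adjusted p = 0.17). EGR1 was higher in the KO sample than in the same-numbered control in 3 of 3 replicates, by 0.09 to 0.37. In this line the deviations of same-numbered control and KO samples from their group means correlated at -0.05, 0.07 and -0.11 over all genes. Control 1 with KO 3, of unlike number, correlated higher, at 0.22, so the block rests on the number alone.

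Of the related lists 2 genes were called in MDA-MB-231 KO cells, both AP-1 targets: IL11 fell by 2.67 (adjusted p = 0.0014) and MMP1, an interstitial collagenase gene, fell by 0.65 (adjusted p = 0.012). Blocking by replicate number ended both calls (adjusted p = 0.052 and adjusted p = 0.071), as it did for every gene called in this line. Of the 11 other AP-1 family, 25 other immediate early, 16 MAP kinase and serum response factor and 12 ERK feedback genes 0 were called by limma, and 1, 3, 6 and 3 had an unadjusted p under 0.05. The medians of the 5 lists lay between -0.15 and 0.04.

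Whether the change after KO differed between the lines was tested as an interaction over all 12 samples, at an adjusted p under 0.05. It differed for JUND and IER3, both of which moved further upward in MDA-MB-468 cells, in a test that called 14.7% of all genes (7.91% in that direction and 6.83% in the other; 12.7% with the block). For JUND, KO minus control was 0.54 in MDA-MB-468 cells against -0.13 for MDA-MB-231, a difference of 0.68 (standard error 0.15, adjusted p = 0.015). For IER3 it was 0.64 and -0.25, a difference of 0.89 (standard error 0.24, adjusted p = 0.029). For IER3 neither change was called on its own, and 6 of the 12 single samples, when left out, ended the call of the difference, at an adjusted p between 0.056 and 0.071: MDA-MB-468 controls 1 and 2 and KO 2, and MDA-MB-231 control 1 and KO 2 and 3. For JUND the difference was 0.55 to 0.74 with any single sample left out, called each time, and 0.64 (adjusted p = 0.071) with both MDA-MB-468 samples of replicate 2 left out.

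FOSL1 had a difference of 0.85 (standard error 0.46, adjusted p = 0.23), which became 1.36 (adjusted p = 0.0022) without MDA-MB-468 KO sample 1. That setting called 1897 genes in place of 1699, and FOSL1 was not called with any other single sample left out. MAFF had 0.34 (adjusted p = 0.14). The remaining 6 genes had differences between -0.31 and 0.03, with 95% confidence intervals as wide as -2.46 to 1.85 for FOS and as narrow as -0.23 to 0.28 for FOSL2.

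Genes called in the related lists were counted in the same way, against 14.7% of all genes (7.91% positive and 6.83% negative). Of 12 ERK feedback genes, 3 were called with a positive difference, MDA-MB-468 minus MDA-MB-231 cells (SPRY2 by 1.09, DUSP5 by 0.70 and ETV4 by 0.53). The 1 called with a negative difference was SPRY1 (-0.96). Of 19 AP-1 targets, 4 were called, all with a positive difference (IL11 by 2.78, IL8 by 1.34, PLAU by 0.74 and MMP1 by 0.65). The KO change of IL11 was 0.10 in MDA-MB-468 cells against -2.67 in MDA-MB-231 cells, and that of IL8 was 0.16 against -1.18. For both the size of the change was larger in MDA-MB-231 cells. IL11 had a mean log2 level of 0.63 in MDA-MB-468 controls, so that a fall of 2.67 was not possible there. Its difference therefore cannot separate a line-dependent response from the low starting level. IL6 and IL1B were also low in these controls, at 0.42 and 0.06, which limits the list median likewise. For PLAU the KO changes were 0.55 and -0.19. MMP1 was listed at 0 in all MDA-MB-468 samples, so that its difference is its change of -0.65 in MDA-MB-231 cells. Of the 25 other immediate early genes, CTGF (1.96), SGK1 (1.81) and SOCS3, a feedback inhibitor of cytokine receptors (0.91), were called with a positive difference. BTG1 (-0.61) was called with a negative one. ELK3 (0.47, adjusted p = 0.040) was the gene called among the 16 MAP kinase and serum response factor genes, a call that was lost with the block (adjusted p = 0.059), and of the 11 other AP-1 family genes 0 were called by limma, with 2 at an unadjusted p under 0.05, which 31.5% of all genes reached. The median difference was 0.34 for the AP-1 targets, 0.01 for the ERK feedback genes and 0.02 over all genes.

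For each of the 10 genes the most similar pattern over the 12 samples was looked up, as the smallest root mean square difference between log2 values centred on each gene's own mean. FOS was closest to ZFP36 (0.54) and to ATF3 (0.60), EGR1 to JUNB (0.58) and FOSB (0.63), and JUNB to IER2 (0.22) and RP11-449H11.1 (0.23). ATF3 was closest to ZFP36 and TRIB1 (0.25 each). Of these neighbours ZFP36, IER2 and TRIB1 are on the list of other immediate early genes, and ATF3 and JUNB are members themselves. FOSL1 was closest to RP11-290L1.3 (0.32) and IL32 (0.37), FOSL2 to FLG and LIMK1 (0.10 each) and JUN to STK38L and SLC30A1 (0.18 each). JUND was closest to ZBTB18 and FHL3 (0.13 each), MAFF to CHRAC1 and TEX10 (0.08 each) and IER3 to RGS10 and UBTD1 (0.17 each). The measure is a description, since the samples share lines, genotypes and replicate numbers.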

How the data were processed

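RNA of the 12 samples was sequenced from stranded, poly(A)-selected libraries. The authors used STAR for alignment to hg19 and RSEM for FPKM of each gene, left out genes whose FPKM had a mean or an SD below 1 over the samples, and deposited log2(FPKM + 1) values. In the deposited values the smallest mean FPKM was 1.07 and the smallest SD 1.00, so that every gene in the table varies between samples. For 18 genes the symbol had turned into a date; these stayed in the tests. Groups were taken from the labels.

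All 11529 genes were fitted with lmFit and eBayes (no trend) of limma 3.58.1, run in R 4.3.3, 3 samples against 3, or all 12 in 4 groups for the difference of the KO change between the lines. Genes were called at a Benjamini-Hochberg adjusted p under 0.05 and an absolute log2 difference over 0.5, the latter not for the difference between lines. P-values are two-sided. Fold changes are of FPKM + 1 and understate those of low genes. On simulated data with 200 genes changed by 1.5 on the log2 scale, 198 were recovered for the MDA-MB-468 comparison, with 3 false calls, and 197 for the MDA-MB-231 comparison, with 9 false calls.

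The members and the gene lists were chosen with earlier results of these data known. All members were named, up to 4 called genes with the largest absolute difference per list and comparison, and for each member the 2 genes of nearest pattern; some genes that this rule names are not reported here. Genes named for their replicate order or as the exceptions of a list, and genes that overlap a member, were chosen after their values or loci were seen. Replicate numbers come from the titles. In MDA-MB-468 cells the deviations of same-numbered control and KO samples from their group means correlated at 0.25, 0.16 and 0.12 across genes, so the numbers were taken to pair these samples. Samples of unlike number correlated at -0.23 to 0.13. The highest of these, control 3 with KO 2, was slightly above control 3 with KO 3, so that the pairing is uncertain. Another number, after the letter p in the descriptions, is 26 to 28 for MDA-MB-468 controls and 25 to 27 for their KO samples and is not explained. Alternatives were a pseudocount of 0.1, a mean log2 value over 2, an intensity trend, scaling to the 75th percentile, quantile normalization, the replicate block, 1 fit of all samples, a log2 difference over 1, an unadjusted p, and leaving out each sample. Leaving out both MDA-MB-468 samples of replicate 2, or both MDA-MB-231 samples of replicate 1, was chosen after seeing the data. Loci were read with Python 3.11.15 and pandas 2.3.3, and figures drawn with matplotlib 3.10.9.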

Additional observations from a re-analysis of the deposited data

Results flagged for a closer look

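The change after SMARCA4 KO differed between the cell lines for JUND by 0.68 on the log2 scale and for IER3 by 0.89, MDA-MB-468 minus MDA-MB-231, as tested by the interaction in limma over 12 samples. The same test called 14.7% of all genes, so that 2 of 10 is near the background. Both held with the replicate number as a block, at an adjusted p of 0.019 for JUND and 0.036 for IER3. Neither was called with both MDA-MB-468 samples of replicate 2 left out, a setting chosen after seeing the data. For IER3 the call was also lost when any of several single samples was left out.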

How the results depend on the processing

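The number of the 10 genes called in MDA-MB-468 cells was 1. It was 0 with the replicate block, 2 in 1 fit of all 12 samples, 0 with a log2 difference over 1, 2 with an unadjusted p, 0 with the samples of replicate 2 left out (chosen after seeing the data), and 0 to 1 with single samples left out. For all genes the count of 247 in that line became 537 in 1 fit, 53 with a log2 difference over 1, 614 with an unadjusted p, 0 with the samples of replicate 2 left out, and 0 to 474 with single samples left out. In MDA-MB-231 cells 426 genes became 0 with the replicate block (smallest adjusted p 0.052, and 3126 genes at an unadjusted p under 0.05), 85 with a log2 difference over 1, 0 with the samples of replicate 1 left out, and 99 to 311 with single samples left out. The fit with the block called 0 of the 10 genes there, as did the fit without it. For the difference between the lines the 2 genes became 0 with a limit of 1, 1 without the MDA-MB-231 samples of replicate 1, 0 without the MDA-MB-468 samples of replicate 2, 3 with an unadjusted p, and 1 to 4 with single samples left out. Over all genes 1699 became 217 with a limit of 1, 3632 with an unadjusted p, 671 and 523 without those samples, and 924 to 1897 with single samples left out. Scaling to the 75th percentile moved the split of this count from 912 higher and 787 lower to 671 and 941. Between controls 7395 genes became 4150 with a log2 difference over 1, and the block gave 8 of the 10 genes in place of 7, FOS being called (adjusted p = 0.0043). Besides these and JUND in MDA-MB-468 cells, the block changed no call of the 10 genes.

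Of 610 alternative values of single genes, 539 kept their direction and side of the threshold, 17 lost and 9 gained a call, and 45 changed sign. FOSL2 changed sign in the difference between the lines at -0.0192 with 75th percentile scaling, -0.0081 with quantile normalization, -0.0159 without the MDA-MB-231 samples of replicate 1 and -0.0107 without the MDA-MB-468 samples of replicate 2, and ATF3 at 0.0052 with quantile normalization. With single samples left out, the range in MDA-MB-468 cells was -0.38 to 0.17 for EGR1, -0.086 to 0.30 for JUNB and -0.15 to 0.35 for ATF3. In MDA-MB-231 cells it was -0.86 to 0.52 for FOS, -0.21 to 0.027 for JUN, -0.044 to 0.13 for FOSL1, -0.53 to 0.92 for EGR1, -0.067 to 0.40 for JUNB and -0.077 to 0.49 for ATF3. For the difference it was -0.26 to 0.20 for JUNB, -0.035 to 0.079 for FOSL2, -0.37 to 0.20 for ATF3, -0.91 to 0.47 for FOS and -0.95 to 0.50 for EGR1, and between controls -0.33 to 0.059 for JUN. The causes were not tested.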
